A study of Mus musculus with 4 samples.

Results

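Of 4523 E2F1 ChIP-seq peaks in mouse embryonic stem cells (ESCs), 319 (7.05%) were consistently higher in serum ESCs than in 2i ESCs. They were chosen by their measured values: in each of them the lower of the 2 serum values was at least 1.4 times the higher of the 2 values from 2i, so the size of the difference between conditions is given below as a description and is not tested. Serum ESCs were grown in medium with fetal calf serum and LIF, and 2i ESCs in a defined medium with LIF plus PD0325901, which blocks MEK and with it the activation of ERK, and CHIR99021, which blocks GSK3. Both were adapted to their condition before fixation, and each was sampled as 2 biological replicates. Every value is a count of reads over a peak that the authors normalized to the depth of the sample. The labels do not give the cell line used for ChIP-seq. Serum and 2i differ in the basal medium as well as in the inhibitors, so the contributions of each cannot be told apart. The paper also reports that these cultures differ in how their cells are distributed over the cell cycle. Its ChIP-seq methods describe no sorting of cells by phase. Whether cell-cycle phase contributes to the differences below was not tested. Reads in peaks ranged from 248878 in serum replicate 1 to 710519 in 2i replicate 1, and the median peak held 35 and 111 reads in these samples. The same rule with the conditions exchanged chose 321 peaks as higher in 2i, and 3883 peaks met neither rule.

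E2F1 binds DNA together with a DP partner, mostly at promoters rich in CpG, and is best known for driving genes of S-phase entry such as replication factors and histones. The retinoblastoma protein RB and its relatives bind E2F factors and restrain them until cyclin-dependent kinases phosphorylate RB. ERK signaling, which 2i blocks, is known for inducing immediate early genes such as Egr1 within minutes of growth factor stimulation and for inducing its own inhibitors of the Dusp, Sprouty and Spred families.

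The sequences at the peaks higher in serum were read from the mm9 genome (NCBIM37), within 200 bp of the peak centre and on both strands. Each is printed 5′ to 3′ over 30 bases on the strand named, with the matching word in capitals. The E2F words searched were TTTCCCGC, TTTGGCGC, TTTCGCGC and TTTGCCGC, and 15 of the 317 peaks on placed chromosomes held at least 1 of them (4.73%), beside 5.1% of all 4509 placed peaks. A match is a description of the letters and not of a bound site. Among histone gene peaks, an E2F word was found in 2 of 21 members (9.52%) and in 5 of the 13 peaks outside the rule (38.5%). The E2F words below lie in peaks nearest to genes of RB, a microRNA cluster, kinase Pim3, ERK inhibitor Spred1 and histones H4 and H2A. The Mir23a peak lies 7653 bp from its start.
Rb1, chr14:73725609-73725638, minus strand: ggaagtgacgtTTTCCCGCggttggcccgg
Mir23a, chr8:86724863-86724892, plus strand: gcggcgacaacTTTCCCGCgcggcccgggg
Pim3, chr15:88692928-88692957, plus strand: cgtctacgcgcTTTCGCGCggccaccgggc
Spred1, chr2:116947206-116947235, minus strand: gaccccagcggTTTGCCGCgccgaggtcga
Hist1h4d, chr13:23673470-23673499, minus strand: cccttgccgccTTTCCCGCgtccagacatg
Hist1h2ad, chr13:23666339-23666368, minus strand: ttgccaccctgTTTGCCGCgtccagacatt

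Words of other factors are shown for the ETS class, which is compared below, for the SRF CArG box because of its known role in the serum response, and for the histone genes. CCGGAAG, the core recognized by ETS factors, was rare among the peaks higher in serum, and 3 of those that hold it lie at Phc1, Il17d and Cbx7. The SRF CArG box, through which serum response factor acts, was found in 3 of the 317 peaks, of which Fblim1 is shown. The EGR word GCGTGGGCG was found in 8 members, at Junb, Foxi3, Mir17hg, Tns3 and 4 H2A genes. Among histone gene peaks it was found in 4 of 21 members (19%) and in 5 of the 13 peaks outside the rule (38.5%). In the H2A peaks (Hist1h2ab, Hist1h2ae, Hist1h2ai and Hist1h2ad) its surroundings were identical over 30 bases, which shows how alike these gene copies are.
Phc1, chr6:122289919-122289948, minus strand: ggtcggctgccCCGGAAGcacctccccgca
Il17d, chr14:58144377-58144406, minus strand: ttggtgggtggCCGGAAGcggcggtcggcg
Cbx7, chr15:79762881-79762910, minus strand: gtggagagcatCCGGAAGaagcgcgtgcgg
Fblim1, chr4:141155850-141155879, plus strand: gcgcgccttaCCATAAAAGGtgacgctcgg
Hist1h2ab, chr13:23843119-23843148, plus strand: tactcggagcGCGTGGGCGccggcgccccg

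The 319 peaks spanned a wide range of signal. Their median normalized count was 101 and 93.4 in serum replicates 1 and 2 and 42.0 and 41.7 in the 2i replicates, which corresponds to a median of 58, 98, 75 and 40 reads. They held 12.4% and 12% of the signal over all peaks in serum and 5.63% and 5.77% in 2i. The ratio that chose them had a median of 1.7 and was at least 2 in 87 peaks and at least 3 in 24, and reached 11.4 at Egr1. Their log2 difference between the condition means, on the scale of log2(normalized count + 1), had a median of 1.10 and ranged from 0.54 to 4.21. They were spread over the whole range of signal, with 71, 73, 75 and 100 of them in 4 equal groups of peaks from the weakest to the strongest mean, whereas the peaks higher in 2i numbered 163, 81, 50 and 27 in the same groups. At this depth, the replicates of a condition differed more than 2-fold at 5.96% of the 319 peaks in serum and also in 2i, and at 9.97% and 6.65% of all peaks. The rule favours peaks whose replicates are close, so nothing is read from this difference, nor from close replicates at the members described below.

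For comparison with a test over the whole table, limma on log2(normalized count + 1) called 218 of 4523 peaks higher in serum (4.82%) at a log2 fold change over 1 and an unadjusted p under 0.05, and 52 (1.15%) after Benjamini-Hochberg adjustment. Without a variance trend these numbers were 217 and 0. Of the 319 peaks, 191 were among the former and 52 among the latter, and as the rule used the same values nothing is read from these counts. In 1126 peaks (24.9%) both serum values lay above both 2i values, which every peak of the rule does by construction. An exact permutation test of 1 peak, two-sided and with 2 samples on each side, cannot give a p below 0.333, so none is given for single peaks. Just inside the threshold lay Setd8, a histone methyltransferase (341 and 349 in serum, 185 and 243 in 2i), Etaa1 (108 and 104 against 73.9 and 70.9) and Zfp618 (33.1 and 83.9 against 23.5 and 19.8). Just outside it lay Chpf (34.8 and 30.5 against 21.8 and 15.6), 9230116N13Rik (188 and 207 against 135 and 123) and Suv39h2, another histone methyltransferase (97.6 and 108 against 70 and 34.4). The lowest members of the rule therefore differ little from the peaks next to them.

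**Figure D1:**
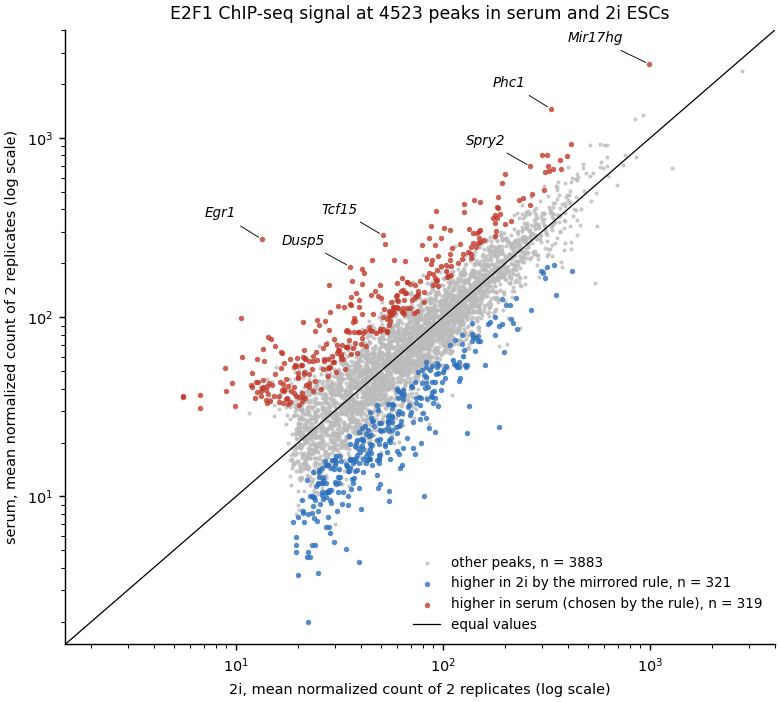
Mean normalized count of the 2 replicates in serum (vertical, log scale) against 2i (horizontal, log scale) for each of 4523 peaks. Red points are the 319 peaks chosen as higher in serum, blue points the 321 peaks chosen by the mirrored rule, grey points the other 3883, and the line marks equal values; Egr1 lies farthest from the line, at 273 in serum and 13.3 in 2i.

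Immediate early genes of the ERK pathway include Egr1, the peak with the largest ratio. By the list, 8 of their 20 peaks were higher in serum by the rule (40%, against 7.03% of all placed peaks) and 2 were higher in 2i. The median log2 difference over the 20 peaks was 0.55, and −0.03 over all placed peaks. Egr1, a zinc finger transcription factor and the classic immediate early gene, had normalized counts of 361 and 186 in serum and 16.2 and 10.4 in 2i at its promoter peak (chr18:35020715-35021182), from 207, 195, 29 and 10 reads. Serum replicate 1 was higher than serum replicate 2, and both stood at least 11.4-fold above the higher 2i value. The log2 difference was 4.21 (SE 0.39, n = 2 per condition). Plk3, a polo-like kinase, had 132 and 147 in serum and 43.7 and 50.1 in 2i at its promoter (chr4:116806223-116806690). Fosl2, a subunit of the transcription factor AP-1, had 50.5 and 68.6 against 14.6 and 25. Replicates lay close together at Plk3 and farther apart at Fosl2, and by the rule the groups do not overlap. Another AP-1 subunit, Junb, had 71.4 and 37.2 against 17.9 and 20.9 at a peak 2349 bp from its start.

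Among the other immediate early genes, Mcl1, which protects cells from apoptosis, combined a high signal with close replicates, at 915 and 950 in serum and 362 and 465 in 2i. Btg1, an antiproliferative gene, had 95.8 and 81.0 against 40.9 and 46.9. Srf, the gene of serum response factor, had 202 and 150 against 76.1 and 94.9. Etv5, an ETS factor downstream of ERK, had 233 and 219 against 150 and 123. The 2 peaks of the list that were higher in 2i belonged to Ier5, with 17.4 and 16.2 in serum and 30.8 and 30.3 in 2i, and to Trib1, a pseudokinase, with 17.4 and 24.8 against 48.1 and 85.5. Thus the list did not move as a whole, and 10 of its 20 peaks met neither rule, among them those of Jund, Klf10, Nr4a1 and Nr4a2.

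The negative feedback genes of ERK held 4 of 14 peaks higher in serum by the rule (28.6%, beside 7.03% of all placed peaks) and 2 higher in 2i, with a median log2 difference of 0.24 over the list. Dusp5, a nuclear phosphatase of ERK, had 204 and 180 in serum and 31.4 and 39.6 in 2i at a peak over its 5'UTR (chr19:53603505-53604107), from 117, 189, 56 and 38 reads. Its log2 difference was 2.41 (SE 0.29), and its replicates were close in both conditions. Spred1, an inhibitor of Ras signaling to RAF, had 390 and 433 against 188 and 175 at the promoter that holds the E2F word shown above. Spry2 had 831 and 560 against 190 and 337, and its relative Spry1 had 78.4 and 102 against 54.9 and 55.3; both encode Sprouty inhibitors of receptor signaling. The peaks of Spred2, Dusp2, Dusp7, Rasa1 and Nf1 met neither rule. Dusp1, the founding phosphatase of the family, was higher in 2i, with 10.5 and 13.3 in serum against 29.7 and 33.4, as was Lrig1, with 45.3 and 62.9 against 177 and 142. Dusp14 had 27.9 and 63.9 against 99.1 and 67.8, short of the mirrored rule. Related members of this pathway therefore lay on opposite sides.

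**Figure D2:**
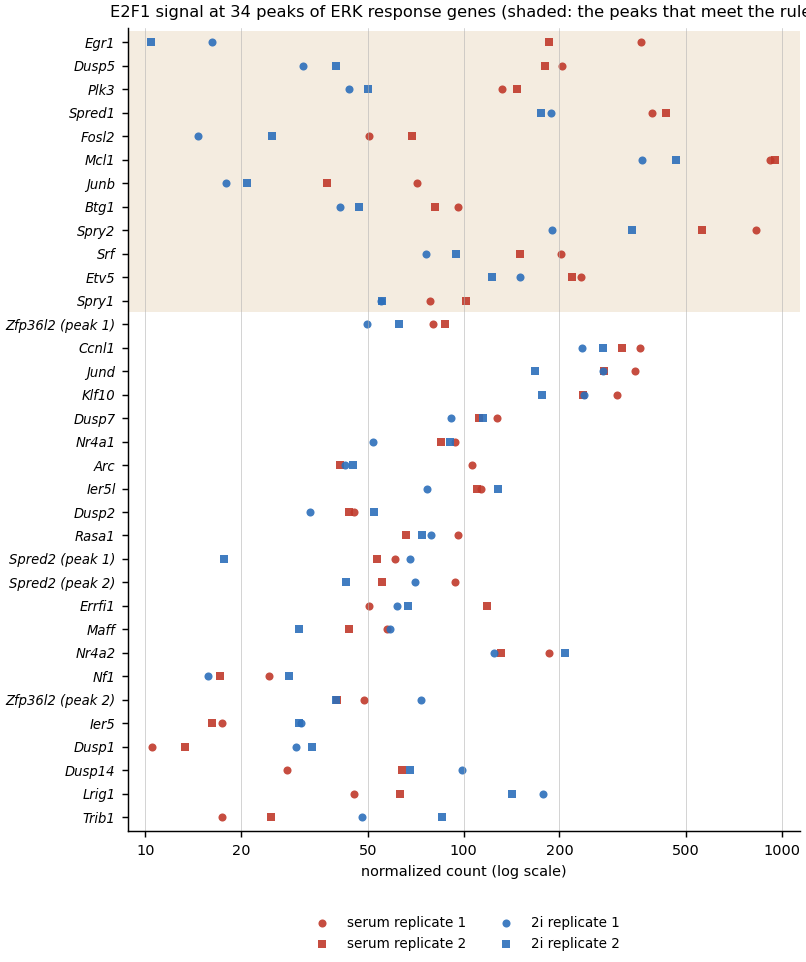
Normalized count (log scale) in each of the 4 samples at 34 peaks of ERK-induced immediate early and negative feedback genes, ordered from the top by the ratio of the lower serum to the higher 2i value; genes with 2 peaks are numbered. The shaded peaks are those that meet the rule, from Egr1 at 11.4 to Spry1 at 1.42, and at the foot Trib1, Lrig1, Dusp14, Dusp1 and Ier5 show both 2i values above both serum values.

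The list of actin cytoskeleton genes, many of which are targets of serum response factor, held 11 peaks, of which 3 met the rule (27.3%, beside 7.03% of all placed peaks) and 0 the mirrored rule. Actb, which encodes beta-actin, had 345 and 273 in serum against 142 and 161 in 2i. Wdr1, which promotes the disassembly of actin filaments, had 298 and 126 against 82.3 and 83.5, so its serum replicates differed from each other by more than serum replicate 2 differed from 2i. Srf itself is the remaining member.

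Replication-dependent histone genes, whose transcription rises at entry into S-phase, were the list with the most peaks of the rule. Of 34 peaks nearest to such genes, 21 were higher in serum (61.8%, beside 7.03% of all placed peaks) and 0 were higher in 2i. The median log2 difference over all 34 was 0.93, beside −0.03 over all placed peaks. All 34 were positive, which the rule fixes for its 21 members. By histone type, the rule chose 4 of 4 peaks at linker histone H1 genes, 6 of 7 at H2B, 4 of 6 at H4, 5 of 10 at H2A and 2 of 7 at H3. Over the 34 peaks the median normalized count was 207 and 182 in serum and 109 and 95.4 in 2i. Both serum values lay above both 2i values in 33 of the 34 peaks (24.9% of all peaks), and limma called 14 of them without and 6 with adjustment (4.82% and 1.15% of all peaks). Nothing is read from these counts, since the rule used the same values and fixes the order of the samples in its 21 members. The peak that overlapped was Hist1h3h, with 300 and 248 in serum and 252 and 139 in 2i.

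The largest ratio among histone genes was at the promoter of Hist1h2bh (chr13:23634780-23635203), an H2B gene, with 141 and 119 in serum and 36.4 and 35.5 in 2i. Hist1h2ab, an H2A gene, had 294 and 263 against 101 and 69.9. Hist1h2bl had 150 and 116 against 48.1 and 41.7. At all of these the replicates of a condition lay closer together than the conditions, which the rule favours. The strongest histone peak of the rule, a broad peak of 1293 bp at Hist1h2bc, had 446 and 460 against 229 and 235. Among the H1 genes, Hist1h1d was the strongest, with 380 and 338 against 213 and 150, and Hist1h1b, Hist1h1a and Hist1h1e had 2i values between 48.0 and 80.6 and serum values between 110 and 155.

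The 13 histone peaks outside the rule fell short mostly through 2i replicate 1. Hist1h2ag, for example, had 186 and 174 in serum and 171 and 80.3 in 2i, and Hist1h3d had 213 and 197 against 194 and 106. Without 2i replicate 1, all 34 histone peaks met the rule. All 21 histone members lie on chromosome 13, where they made up 21 of its 31 peaks of the rule, and all of them but Hist1h2al (chr13:51298026-51298473) lie in its histone clusters. Histone genes are near-identical copies, as the H2A sequences above show, and the authors aligned reads with the default settings of BWA. Whether reads that fit several copies were filtered afterwards is not given in the sources used here. Counts of neighbouring copies may thus share reads, and the 34 peaks are not 34 independent measurements. Their GC content, between 49.5% and 68.8%, was below that of most peaks. Other peaks in this GC range met the rule in 34 of 366 cases (9.29%), with a median log2 difference of −0.02. From 60% to 65% GC, where 15 of the 34 histone peaks lie, 12 of 86 other peaks met it (14%), with a median of 0.27. From 65% to 70%, where 14 lie, 27 of 377 did (7.16%), with a median of −0.09. After removal of the GC trend the median over the 34 histone peaks was 0.74, against 0.93 as deposited. The parts of GC content and of cell-cycle phase in the histone difference were not tested.

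**Figure D3:**
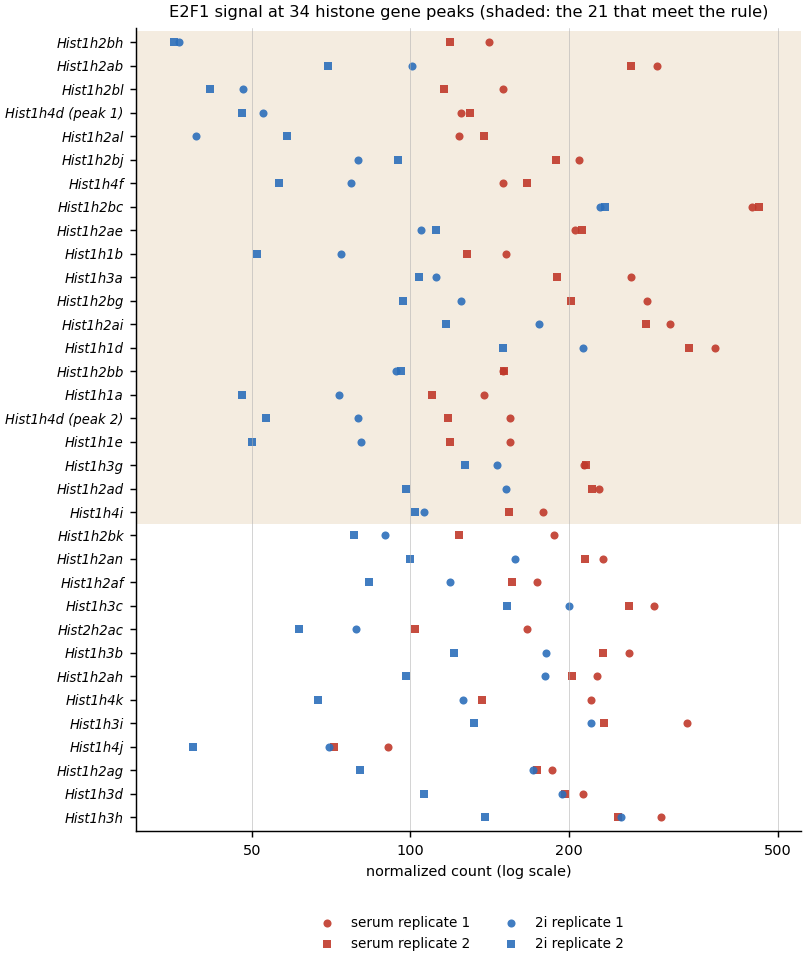
Normalized count (log scale) in each of the 4 samples at 34 histone gene peaks, ordered from the top by the ratio of the lower serum to the higher 2i value, with the 21 peaks that meet the rule shaded. Serum values (red) lie to the right of 2i values (blue) in 33 peaks, and in the unshaded peaks 2i replicate 1 (blue circles) approaches the serum values.

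The other gene lists of the cell cycle, which hold the best known E2F targets, held from 0 to 2 members each, which is to be read beside the 7.03% of all placed peaks. None of the 8 peaks at DNA replication genes, the 8 at repair genes or the 8 at G1/S cyclins, kinases and CDK inhibitors met the rule, and 1, 0 and 2 of them were higher in 2i. Their median log2 differences were −0.08, 0.25 and 0.05. Of 6 peaks at mitosis genes, the peak of Mki67, which encodes the proliferation marker Ki-67, met the rule with 97.6 and 102 in serum against 44.8 and 57.4 in 2i. The E2F and pocket protein genes held 2 of 10. E2f2, which encodes another activating E2F, had 61.0 and 53.4 against 25.2 and 19.8. Rb1, which encodes RB, had 172 and 176 against 77.3 and 101 at the promoter that holds the E2F word shown above. At both genes the serum replicates lay close together.

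Pluripotency genes were few among the peaks. Of 6 peaks at genes of the primed state, 3 met the rule (50%, beside 7.03% of all placed peaks). Pou3f1, a POU factor of the epiblast, had 138 and 234 in serum against 50.4 and 31.3 in 2i. Lin28b, an inhibitor of let-7 processing, had 174 and 213 against 108 and 86.6. Dnmt3b, a de novo DNA methyltransferase, had 169 and 249 against 72.2 and 105. Eomes, in the same list, was higher in 2i. Of 9 peaks at core and naive pluripotency genes, 2 met the rule (22.2%). Those of Sox2 (693 and 819 against 251 and 482) and of Sall1 (420 and 422 against 239 and 286) lay close to its threshold, with ratios of 1.44 and 1.47.

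Genes of Wnt and beta-catenin signaling, the pathway that CHIR99021 turns on, held 23 peaks, of which 0 met the rule, beside 7.03% of all placed peaks. The mirrored rule was met by 4 of the 23, at Lef1, Axin2 (2 peaks) and Dvl3, beside 321 of all 4509 placed peaks. The median log2 difference over the 23 peaks was −0.02, beside −0.03 over all placed peaks. In the TGF-beta and BMP list 2 of 21 peaks were higher in serum and 1 in 2i. Skil, a repressor of SMAD factors, had 439 and 826 in serum against 219 and 177 in 2i, and Id2, an inhibitor of basic helix-loop-helix factors, had 71.4 and 77.2 against 33.0 and 37.6. The 8 peaks of the Myc network and the 16 of respiration and mitoribosome genes gave 0 members. Of 6 peaks at YAP and TEAD targets, that of Jub, a LIM protein, met the rule with 80.1 and 57.2 against 31.9 and 36.5.

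Chromatin modifier genes held 55 peaks, of which 8 met the rule (14.5%, beside 7.03% of all placed peaks) and 2 the mirrored rule. Setd1b, a histone methyltransferase, had 160 and 173 in serum against 59.3 and 67.8 in 2i. A peak over the 5'UTR of Arid1a, a subunit of the BAF remodelling complex, had 138 and 130 against 58.8 and 60.5. The Polycomb gene Cbx7 had 166 and 138 against 77.3 and 69.9. At all of these the replicates of a condition lay close together. The remaining members of the list are Jarid2, Dnmt3b, Kdm2a, Arid1b and another peak of Arid1a.

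The other peaks among the 15 highest ratios, leaving out those over 5 kb from a start (P4ha2, St18 and Mctp2, described below), belonged to genes of varied function. Rarg, the retinoic acid receptor gamma, had 178 and 125 in serum against 29.1 and 27.1 in 2i at an intronic peak (chr15:102078062-102078504). Il17d, a cytokine gene, had 207 and 303 against 50.9 and 54.2. Tcf15, a basic helix-loop-helix factor, had 348 and 226 against 60.5 and 41.7. In these the serum replicates differed more than the 2i replicates on the scale of normalized counts. Tcfl5, another basic helix-loop-helix factor, had 129 and 192 against 35.3 and 37.6, and Stmn1, which destabilizes microtubules, had 62.7 and 54.3 against 9.52 and 15.6. Hspg2, which encodes the basement membrane protein perlecan, had 92.3 and 62.9 against 11.8 and 16.7. Cacng7, a calcium channel subunit gene, was weaker, at 31.4 and 41.9 against 5.04 and 8.35. Rnf165, a RING finger gene, had 366 and 421 against 108 and 76.2, and 1190005I06Rik had 101 and 86.7 against 19 and 22.9. A peak on an unplaced contig of chromosome 1, with 34.8 and 38.1 against 2.80 and 8.35, completes this group and could not be annotated.

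By mean signal, the strongest peaks of the rule lay at Mir17hg, Phc1, Mcl1, Bend3 and Sox2. Mir17hg, the host transcript of the miR-17-92 cluster, had the highest signal, with 3087 and 2100 in serum and 1072 and 904 in 2i over 1713 bp. Phc1, a Polycomb gene, had 903 and 2020 against 357 and 306, and its serum replicates differed by more than 2-fold. Bend3, a gene of heterochromatin, had 646 and 941 against 386 and 406. With cyclic loess, which removes a trend of the difference on signal, Mir17hg, Bend3, Sox2, Sall1, Setd8 and Etaa1 no longer met the rule, at log2 differences of 0.67, 0.59, 0.75, 0.43, 0.49 and 0.52.

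In the remaining lists the members were few, and their shares are to be read beside the 7.03% of all placed peaks. The mirrored rule was met by 2 zinc finger, 1 ribosomal protein, 3 developmental factor, 0 imprinted gene and 1 apoptosis and p53 peaks. Zinc finger protein genes held 7 of 89 peaks higher in serum (7.87%), and 2 of the 7 lie in Zfp423, a developmental transcription factor, at 106 and 85.8 against 27.4 and 21.9 and at 118 and 111 against 36.4 and 30.3. Zfp532 had 784 and 820 against 237 and 401. Ribosomal protein genes held 5 of 33 (15.2%). The signal was low at Rps3 (33.1 and 30.5 against 7.28 and 12.5), Rps16 (45.3 and 25.7 against 11.2 and 13.6) and Rps24 (41.8 and 41.0 against 11.8 and 24.0), and higher at Rpl13 (87.1 and 84.8 against 47.6 and 52.2) and Rps3a (279 and 213 against 138 and 150). Families of developmental transcription factors held 5 of 44 (11.4%), among them Foxp1 with 99.3 and 316 against 45.3 and 45.9, Foxi3 with 34.8 and 45.8 against 11.2 and 15.6, and Pax2 with 41.8 and 43.8 against 23.0 and 21.9. Of 5 peaks at imprinted genes, 2 met the rule (40%), both at the adaptor gene Grb10, with 55.8 and 96.3 against 11.8 and 17.7 and with 59.2 and 72.4 against 18.5 and 24.0. In the apoptosis and p53 list 2 of 8 peaks met the rule (25%). Besides Mcl1 this was Gadd45a, a stress response gene, which had 47.0 and 67.7 against 20.2 and 7.3.

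Of 21 peaks nearest to named microRNA genes, 4 were higher in serum (19%, beside 7.03% of all placed peaks) and 0 higher in 2i. Over all 49 peaks nearest to an annotated miRNA gene, 7 were higher in serum (14.3%) and 3 in 2i. A peak 7653 bp from the start of Mir23a, of a cluster on chromosome 8, had 207 in both serum replicates and 61.6 and 69.9 in 2i, and it holds the E2F word shown above. Upstream on the same chromosome, a peak nearest to Mir181c had 101 and 136 against 43.7 and 27.1. Mir295, of a cluster that is abundant in ESCs, had 193 and 112 against 26.9 and 54.2. The peak of Mir17hg is described above. As genes were assigned by the nearest start, the peaks far from a start need not act on the gene named.

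The positions of the peaks higher in serum differed from those of other peaks in the values as deposited. Position was not used by the rule, and the shares are given with exact Clopper-Pearson 95% intervals over peaks, which cover counting error only and treat neighbouring peaks as independent. Promoters, taken as 1000 bp upstream to 100 bp downstream of a GENCODE M1 start, held the centre of 158 of 317 peaks (49.8%, interval 44.2 to 55.5), against 66.6% (65.1 to 68.1) of the peaks that met neither rule and 68.5% (63.1 to 73.6) of the peaks higher in 2i. Intergenic positions held 13.6% (9.99 to 17.8), against 4.73% and 4.36%, and among peaks whose 4 samples averaged at least 50 they held 7.96% (4.62 to 12.6) against 3.02% and 1.92%. After removing each sample's trend on GC content, an alternative chosen after seeing the data, the intergenic share was 6.58% (4.06 to 9.98) against 5.32% (4.69 to 6.02) of all placed peaks. The share at promoters and 5'UTRs together was then 69.7% (64.2 to 74.9) against 75.2% (73.9 to 76.5), and in both cases the intervals overlap. The shares in exons (11.0%), introns (12.9%) and 5'UTRs (11.7%) had intervals that overlapped those of the other peaks. The centre lay a median of 185 bp from the nearest start, against 105 bp over all placed peaks. Without the histone gene peaks the promoter share was 49.3%. An opposite-strand start of another gene within 1 kb was as frequent as elsewhere, at 14.5% against 14.7% of all placed peaks.

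**Figure D4:**
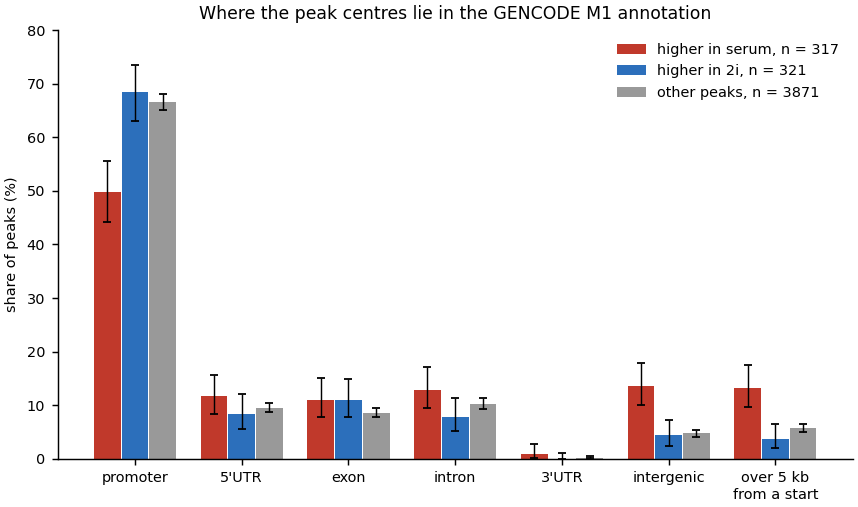
Share of peaks (%) whose centre lies in each class of the GENCODE M1 annotation, with exact 95% intervals, for 317 placed peaks that were higher in serum, 321 that were higher in 2i and 3871 others. The last group, over 5 kb from a start, cuts across the classes, and the red bar is lower than the others at promoters (49.8%) and higher at intergenic positions (13.6%) and over 5 kb from a start (13.2%).

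Peaks over 5 kb from any start numbered 42 of 317 (13.2%, interval 9.72 to 17.5), against 5.79% of the peaks that met neither rule and 3.74% of those higher in 2i. The largest ratio among them was at a peak 12567 bp from the start of P4ha2, a collagen prolyl hydroxylase (chr11:53953586-53953938), with 120 and 77.2 in serum and 5.60 and 15.6 in 2i. Mctp2, at 30099 bp, had 45.3 and 32.4 against 9.52 and 8.35. St18, at 45738 bp, had 26.1 and 36.2 against 6.16 and 7.3, and Ankrd33, at 37257 bp, had 88.9 and 43.8 against 12.3 and 14.6. With Mir23a, described above, these are the 5 highest ratios. With the GC trend removed, the log2 difference went from 1.99 to 1.11 at Mctp2 and from 3.22 to 2.67 at P4ha2. It went from 2.04 to 2.17 at St18, from 2.14 to 2.09 at Ankrd33 and from 1.64 to 1.68 at Mir23a. The 42 peaks had a median mean signal of 32.3, against 72.9 for all placed members. Their base composition also differed: the median GC content within 200 bp of the centre was 48.2% and the median number of CpG dinucleotides 5, against 73.1% and 49 in the 224 peaks over 5 kb from a start that met neither rule. Among peaks whose 4 samples averaged at least 50, the share over 5 kb was 6.97% of the members and 3.6% of all. After removing the trend on GC content it was 5.26%, below the 6.17% of all placed peaks. The part of GC content in the difference was not tested further.

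The sequence words likewise differed between the groups. The ETS word was found in 17 of 317 peaks higher in serum (5.36%, interval 3.15 to 8.45), against 14.1% (13 to 15.2) of the peaks that met neither rule, 15.3% (11.5 to 19.7) of the peaks higher in 2i and 13.6% of all placed peaks. Restricted to promoters and 5'UTRs, so that positions are alike, it was in 11 of 195 (5.64%, 2.85 to 9.87) against 14.2% (12.9 to 15.5) and 16.2% (11.8 to 21.4), where the median GC content was 75.5% in the peaks higher in serum, 76.0% in those of neither rule and 73.8% in those higher in 2i. Without histone genes it was 6.01%. In whole peaks the ETS word was found in 8.52% (5.69 to 12.2) of the members and 16.9% of all. It was in 17.7% (16.6 to 19) of the peaks of neither rule and 15.3% (11.5 to 19.7) of those higher in 2i. Over whole peaks at promoters and 5'UTRs it was in 10.3% (6.38 to 15.4) of the members and 17% (12.5 to 22.3) of those higher in 2i. In both cases the intervals of members and of peaks higher in 2i overlap. The YY1 word AAGATGGCG was found in 1.58% (0.514 to 3.64) against 5.04% (4.37 to 5.77), and in promoters and 5'UTRs in 1.03% (0.124 to 3.66) against 4.44% (3.73 to 5.25). Over whole peaks these shares were 2.84% (1.31 to 5.32) against 5.94% (5.22 to 6.73), and 2.56% (0.838 to 5.88) against 5.36% (4.57 to 6.23), and both pairs of intervals overlap. The SP/KLF word GGGCGG was found in 77.9% against 92.1%. At promoters and 5'UTRs it was in 87.7% (82.2 to 92) against 94.6% (93.7 to 95.4), and without histone genes there in 90.2% (84.9 to 94.1) against 94.6% (93.8 to 95.4), where the intervals overlap. After the GC trend was removed it was in 87.5% of the members.

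Full E2F words were about as frequent as in other peaks, being found in 4.73% (2.67 to 7.68) of the peaks higher in serum, in 5.3% of the peaks higher in 2i and in 5.11% of the others. The shorter core TTCCCGC, which is also part of TTTCCCGC, was found in 9.78% (6.74 to 13.6) against 14.8% (13.7 to 15.9), and at promoters and 5'UTRs in 10.8% (6.79 to 16.0) against 14.8% (13.5 to 16.1). Besides those printed above, E2F words lie in peaks of Basp1, Tpt1, Mmp11, Hmgxb4, Ssr1, Kdm2a, Spint2, BC057022 and Arid1b. The SRF CArG box was found in 3 peaks higher in serum (0.946%), at Egr1, Fblim1 and a peak nearest to SNORA17, and in 0.399% of all placed peaks. In whole peaks it was found in 8 of 317 (2.52%), against 0.62% of the peaks of neither rule. The shares of NRF1 (GCATGCGC, 1.89% against 4.11%) and of E-box (CACGTG), NFY (CCAAT), CRE (TGACGTCA), AP-1 (TGANTCA), OCT (ATGCAAAT), ESRRB (TCAAGGTCA), TEAD and EGR words had intervals that overlapped those of the peaks of neither rule. Of the 8 members with the EGR word, 4 are the H2A copies. At promoters and 5'UTRs without histone genes it was found in 0 of 183 members (0 to 2), against 2.75% (2.19 to 3.41). These 2 intervals do not overlap. The TCF/LEF word CTTTGAA was found in 10 peaks (3.15%, 1.52 to 5.72) against 0.956% (0.674 to 1.32), and at promoters and 5'UTRs in 2.05% (0.562 to 5.17) against 0.746% (0.468 to 1.13). In peaks over 5 kb from a start, TEAD words (GGAATG) were found in 11 of 42 (26.2%, 13.9 to 42.0) against 5.8% (3.13 to 9.72) and the SP/KLF word in 33.3% against 70.1%, where GC content also differed as given above.

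Membership of the rule differed with GC content. Of 88 peaks with a GC content under 50%, 32 were higher in serum (36.4%), with a median log2 difference of 0.84. The share was 18.9% from 50% to 60%, 19.8% from 60% to 65%, 8.95% from 65% to 70% and between 5.13% and 6.89% above that. Leaving out histone genes, the share was 35.6% under 50%, 9.09% from 50% to 60% (3 of 33 peaks, with a median log2 difference of −0.04) and 14% from 60% to 65%. A GC content under 60% was found in 39 of 317 peaks higher in serum (12.3%), against 2.77% of all placed peaks, and in 25 of the 42 over 5 kb from a start. The median over the 317 peaks was 74.5%, against 75.5% over all placed peaks. The part of GC content in the serum difference was not tested.

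**Figure D5:**
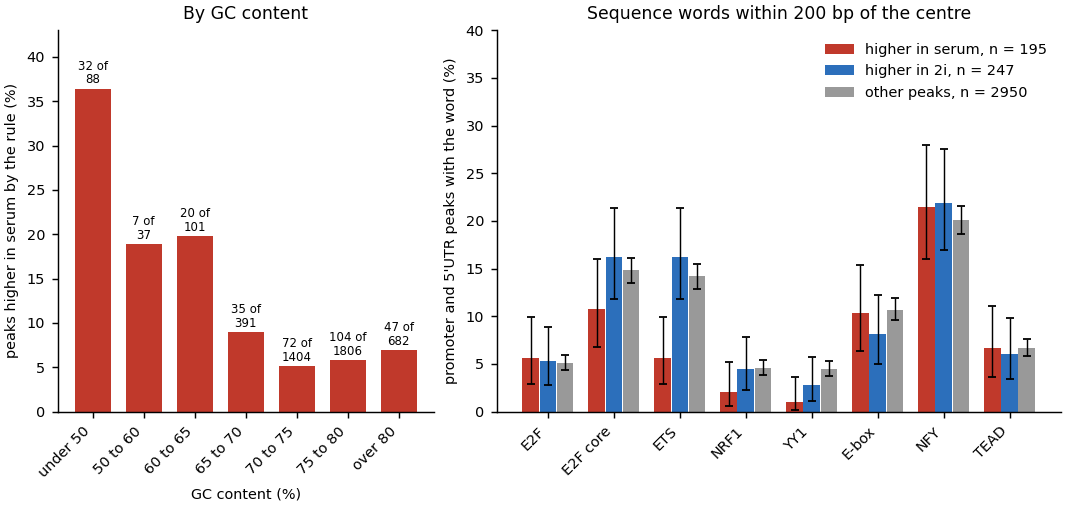
Left, share of peaks that are higher in serum by the rule (%) in each range of GC content (%), with the numbers of peaks above the bars; the share is 36.4% under 50% GC and 5.13% from 70% to 75%. Right, share of promoter and 5'UTR peaks (%) that hold each sequence word within 200 bp of the centre, with exact 95% intervals, where the ETS word is in 5.64% of the peaks higher in serum, 16.2% of those higher in 2i and 14.2% of the others.

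The peaks were spread unevenly over chromosomes. Chromosome 13 held 31 of 181 (17.1%), and 10 of 148 (6.76%) without histone genes. Chromosome 19 held 20 of 150 (13.3%) and chromosome 15 held 24 of 191 (12.6%). At the other end, chromosome 11 held 8 of 386 (2.07%) and chromosome 16 held 3 of 150 (2.00%). The median log2 difference over all peaks of a chromosome was −0.24 on chromosome 11, −0.26 on chromosome 16 and −0.38 on chromosome 6, and between −0.17 and 0.13 on the others. The part of the chromosome in the serum difference was not tested.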

How the data were processed

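E2F1 ChIP-seq samples of serum and 2i ESCs (n = 2 each, from the sample labels) were analysed. According to their methods and processing notes, the authors aligned reads to mm9 with BWA, removed duplicates, called peaks per sample with MACS2, intersected replicates, merged both conditions and counted reads with bedtools. They deposited a signal per peak and sample, which is the read count divided by a size factor. Of 18092 values, 99.95% were whole multiples (within 0.01 read) of what 1 read is worth, from 0.560 to 1.74. Reads in peaks were 248878 and 450420 in serum and 710519 and 395738 in 2i. Peak coordinates are as deposited, and whether starts count from 0 or 1 is not stated.

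The rule was applied to the values as deposited. limma (version 3.58.1, R 4.3.3) with eBayes and a variance trend was fitted to log2(value + 1) over all 4523 peaks. The labels do not say whether samples with the same number were prepared together, so the main fit pairs none. Its p-values measure the spread between these samples. limma was tested on simulated data. Peaks were placed by their centre on GENCODE M1 (NCBIM37); 14 on unplaced contigs, 2 of them members, were not annotated. Members, 23 gene lists and 16 sequence words were chosen with earlier results of these data known; older gene symbols were then added where the annotation uses them. Named peaks are the 15 members with the highest ratio, the 5 with the highest mean, the 5 with the highest ratio over 5 kb from a start, up to 3 per list by ratio, and 3 on each side of the threshold; others were named after their values were seen. Alternatives were other thresholds, scalings, pseudocounts, a minimum mean of 50, leaving out each replicate, a replicate block, other promoter definitions and removal of the GC trend (lowess), the last added after seeing the data. Python 3.11.15 with numpy 2.4.6, scipy 1.17.1 and statsmodels 0.14.6 was used.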

Additional observations from a re-analysis of the deposited data

How the results depend on the processing

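The count of peaks that met the rule followed its settings by construction: 602 at a threshold of 1.2, 154 at 1.7, 87 at 2, 202 with a minimum mean of 50, and from 533 to 677 when a replicate was left out. Of the 319 peaks, 286 remained among 343 with cyclic loess, 249 after rescaling to the same total, which shifted the median log2 difference by −0.09, 319 after rescaling by the median of ratios and 267 among 306 after removal of the GC trend. Histone gene members numbered 10 at a threshold of 1.7, 5 at 2 and 17 with cyclic loess. They numbered 15 after rescaling to the same total and 15 after removal of the GC trend. When a replicate was left out they numbered from 21 to 34, the highest without 2i replicate 1. All 34 histone peaks had a positive log2 difference under the 10 settings of the values, scaling and replicates that were run. These settings share the same samples and the rule fixes the sign in its members, so nothing is read from this. The share at promoters and 5'UTRs was 61.5% (75.2% of all placed peaks), and 67.7% (78.1%) with a mean of at least 50, 69.7% (75.2%, with overlapping intervals) without the GC trend and 76.7% (88.3%) with promoters of 500 bp on either side. The share over 5 kb from a start was 13.2% (6.17% of all placed peaks), and 6.97% (3.6%) and 5.26% (6.17%) with the first 2 of these. The ETS word was in 5.36% of members, in 2.33% at a threshold of 2 and in 8.52% of whole peaks, and the SP/KLF word in 77.9%, 83.6% with a mean of at least 50 and 87.5% without the GC trend. Of 62 named peaks, 56 met the rule with cyclic loess and 60 without the GC trend, where Sall1 and Zfp618 were lost, and 0 reversed. The causes of these changes were not tested.

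limma called 218 peaks higher in serum, 121 with a mean of at least 50 and from 185 to 283 when a replicate was left out. After adjustment it called 52, 0 without a variance trend, where 370 had an unadjusted p under 0.05, and from 0 to 11 when a replicate was left out, with 0 without serum replicate 1, where 262 had an unadjusted p under 0.05. With the replicate number as a block it called 226, and 152 after adjustment; 470 peaks met the rule when serum and 2i values were compared within the same number. Deviations of samples with the same number had a correlation of 0.0483 over 4523 peaks. With 2 samples per condition and this depth, this cannot decide whether the numbers pair the samples. edgeR and DESeq2 on read counts were not run. Serum replicate 1, with 35 reads in the median peak, limits the precision of weak peaks.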

Other observations

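The groups in these paragraphs were picked after their values were seen. Solute carrier genes, which encode membrane transporters, held 61 peaks, of which 8 met the rule (13.1%, beside 7.03% of all placed peaks) and 3 met the mirrored rule, with a median log2 difference of 0.05. The amino acid transporter genes had the largest values among them. Slc38a2 had 312 and 336 in serum and 102 and 74.1 in 2i, and Slc7a5 had 646 and 478 against 194 and 193. The rule itself sets these conditions apart. The zinc transporter gene Slc39a10 had 174 and 330 against 95.2 and 87.6, and the glucose transporter gene Slc2a1 had 172 and 170 against 109 and 101.

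Genes of spliceosomal small nuclear RNAs held 44 peaks, of which 8 met the rule (18.2%, beside 7.03% of all placed peaks) and 1 met the mirrored rule. Of these 8, 3 lie at neighbouring U5 genes on chromosome 4, with 124 and 90.6 in serum against 21.3 and 35.5 in 2i, 127 and 122 against 58.2 and 72.0, and 81.9 and 84.8 against 53.7 and 53.2. They had a GC content of 43%, 38.2% and 39.2%. The U4atac gene of the minor spliceosome had 85.4 and 82.9 against 52.6 and 38.6. These genes are near-identical copies, and 3 of the 4 peaks nearest to U6 genes lie over 5 kb from them.

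Of the 300 genes with a member, 14 held several members, and of the 4256 genes with any peak, 192 held several peaks. At Pim3, Basp1, Arid1a, Zfp423 and Grb10 separate peaks of the same gene met the rule.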
